A study of Mus musculus with 12 samples.

Results

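The nephron lineage transcription factors described here are 8 genes: *Hnf4a*, *Hnf4g*, *Pax2*, *Pax8*, *Lhx1*, *Tfap2b*, *Gata3* and *Emx1*. The rule takes rows by gene name, and each factor has 1 of the 22053 rows of the deposited expression table. Their RNA was measured by sequencing of whole kidneys from 12 wild-type C57BL/6 mice, 4 per group. Control mice ate a control diet, and CKD mice ate a diet with 0.2% adenine for 8 weeks, from 8 to 16 weeks of age, which produces chronic kidney disease (CKD). CKD+Fe mice ate the adenine diet and also received iron dextran at 0.5 g/kg i.p. every week, while mice of the other groups received PBS i.p. on the same schedule. The comparisons ask how the disease changed the factors and whether iron dextran moved them in diseased kidneys. Mice are numbered 1 to 4 within a group, and the numbers only name them.

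Transcription factors of this group divide the nephron into its segments. Hnf4a is a nuclear receptor of the proximal tubule, the segment that reabsorbs most of the filtrate, and Hnf4g is its paralog. Pax2 and Pax8 are paired-box factors that specify the nephron and ureteric lineages, and Lhx1 is a LIM homeodomain factor needed for nephron formation. Tfap2b acts in the distal nephron, Gata3 in the ureteric bud and collecting duct, and Emx1 is a homeobox factor whose paralog Emx2 is needed for the urogenital tract. Gata3 is also a factor of T cells and innate lymphoid cells and is made in the urothelium that lines the renal pelvis.

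All 8 genes are placed on the mouse build GRCm38, at the same coordinates as in the GENCODE M21 annotation. *Hnf4a* (ENSMUSG00000017950) spans chr2:163506808-163572910 on the plus strand, and *Hnf4g* (ENSMUSG00000017688) spans chr3:3508030-3658052 on the plus strand. *Pax2* (ENSMUSG00000004231) is at chr19:44756045-44837871, plus strand, and *Pax8* (ENSMUSG00000026976) at chr2:24420560-24475599, minus strand. *Lhx1* (ENSMUSG00000018698) is at chr11:84518284-84525535 on the minus strand, and *Tfap2b* (ENSMUSG00000025927) at chr1:19208914-19238576 on the plus strand. *Gata3* (ENSMUSG00000015619) is at chr2:9857078-9890034, minus strand, and *Emx1* (ENSMUSG00000033726) at chr6:85187438-85204462, plus strand. *Hnf4a*, *Pax2*, *Pax8* and *Gata3* each overlap a gene on the other strand, *Hnf4aos* in the case of *Hnf4a*. Whether the quantification used strand is not given in the sources used here, so reads of these 4 genes and of their antisense partners may not be separated.

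Windows around the start sites of *Hnf4a*, *Tfap2b* and *Emx1* are shown because these factors differed most between CKD and control mice, and that of *Gata3* because it is the member whose window held the most TFAP2 letters. RefSeq windows of build GRCm38.p6, from 250 bases before to 50 bases after a start site, were matched for 7 of the 8 factors, in 10 windows, and *Hnf4g* was not matched. Capitals mark the letters searched on both strands: GGGCGG (Sp factors), GCCNNNGGC (TFAP2 factors) and AGATAA (for GATA factors). *Hnf4a* has 2 windows, at chr2:163506607-163506906 and chr2:163546905-163547204, both on the plus strand, and the deposited gene level does not separate transcripts of these starts. The *Tfap2b* window is chr1:19211804-19212103 (plus), the *Gata3* window is chr2:9878551-9878850 (minus) and the *Emx1* window is chr6:85187681-85187980 (plus).
Hnf4a, first start: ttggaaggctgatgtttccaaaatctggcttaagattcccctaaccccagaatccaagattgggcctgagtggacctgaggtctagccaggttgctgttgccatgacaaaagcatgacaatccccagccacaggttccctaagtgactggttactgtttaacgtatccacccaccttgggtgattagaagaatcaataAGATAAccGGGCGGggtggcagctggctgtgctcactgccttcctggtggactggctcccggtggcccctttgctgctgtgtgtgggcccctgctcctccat
Hnf4a, second start: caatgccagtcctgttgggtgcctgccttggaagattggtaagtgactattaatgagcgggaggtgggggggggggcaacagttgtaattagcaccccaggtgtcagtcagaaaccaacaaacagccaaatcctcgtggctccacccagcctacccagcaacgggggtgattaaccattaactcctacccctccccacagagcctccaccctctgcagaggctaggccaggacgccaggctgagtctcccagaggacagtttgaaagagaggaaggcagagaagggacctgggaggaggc
Tfap2b: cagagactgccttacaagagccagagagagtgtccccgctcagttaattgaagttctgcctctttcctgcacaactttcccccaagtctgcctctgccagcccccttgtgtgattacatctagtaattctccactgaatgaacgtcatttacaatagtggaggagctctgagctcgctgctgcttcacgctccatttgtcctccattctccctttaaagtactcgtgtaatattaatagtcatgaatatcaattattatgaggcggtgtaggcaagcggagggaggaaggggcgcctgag
Gata3: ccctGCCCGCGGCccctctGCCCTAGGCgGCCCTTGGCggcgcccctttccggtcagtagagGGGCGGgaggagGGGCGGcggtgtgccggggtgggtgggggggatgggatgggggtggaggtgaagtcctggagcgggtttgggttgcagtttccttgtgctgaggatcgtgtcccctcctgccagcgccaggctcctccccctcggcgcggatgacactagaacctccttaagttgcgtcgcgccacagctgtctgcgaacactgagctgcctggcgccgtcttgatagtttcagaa
Emx1: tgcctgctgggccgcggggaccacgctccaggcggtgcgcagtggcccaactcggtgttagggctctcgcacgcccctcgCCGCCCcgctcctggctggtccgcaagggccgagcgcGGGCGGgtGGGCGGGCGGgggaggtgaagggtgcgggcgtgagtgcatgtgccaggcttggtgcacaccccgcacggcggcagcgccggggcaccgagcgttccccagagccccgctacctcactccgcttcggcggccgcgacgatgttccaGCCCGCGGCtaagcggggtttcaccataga

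The *Gata3* window held GCCNNNGGC at 3 positions, at -246, -231 and -221, and the *Emx1* window at 1. Of the 32851 RefSeq promoter windows of the same length 16.6% held it. The *Gata3* window was picked for these letters, so its count is no test. The *Gata3* and *Emx1* windows were 67.3% and 74.0% G and C, against a median of 52.7%. GGGCGG was at 4 positions of the *Emx1* window, the last 2 of them overlapping, and at 2 of the *Gata3* window, against 35.7% of all windows. Among the 10 windows AGATAA was in the first *Hnf4a* window only, against 11.2% of all windows. The HNF4 letters CAAAGTCCA (0.475% of all windows) and CAAAGTTCA (0.39%), TATAAA (13.6%) and the AP-1 letters TGANTCA (7.81%) were in none of the 10. The second *Hnf4a* window and the *Tfap2b* window held none of the letters searched. The HNF1 letters GTTAAT were planned but not searched, so their share of all windows is not known here. Read on either strand, they occur in both of these windows. The *Emx1* and *Lhx1* windows had 37 and 31 CpG dinucleotides, while each *Hnf4a* window had 4, against a median of 7. These are matches of letters, and binding was not measured.

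Expression is given as the authors' FPKM (fragments per kilobase, relative to all mapped reads of a mouse), which can be compared between genes because it is per length. Fold changes are on the log2(FPKM + 1) scale from limma, with p-values adjusted by the Benjamini-Hochberg method over 13148 genes and a threshold of 0.05. The depth, estimated from the step between the lowest values, was about 18100000 to 26300000 reads per mouse. Tubule identity was clear in every kidney: *Slc34a1* of the proximal tubule ranged from 145 to 1918 FPKM and *Umod* of the thick ascending limb from 1159 to 2476 FPKM. The injury gene *Havcr1* was at 1.22 to 2.75 FPKM in control mice and at 61.4 to 317 FPKM on the adenine diet. In the deposited values most genes were higher in CKD, with a median log2 fold change of 0.502 and 7181 genes higher against 1748 lower. Median-of-ratios rescaling gave a median of 0.012 with 3781 genes higher and 3856 lower, and quantile normalization a median of -0.029 with 3060 and 3363, so directions are given under each scaling. Control mouse 3, CKD mouse 3 and CKD+Fe mouse 1 had the lowest limma array weight of their group, and the main results are also given without these 3 mice, an alternative chosen after the data were seen. Control mouse 3 had a summed 2022 FPKM over 10 collecting duct genes, against 495 to 663 FPKM in the other control mice. In whole kidney tissue, fewer cells of a type and less RNA per cell cannot be told apart.

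In control kidneys the 8 factors spanned a wide range of levels. *Hnf4a* was highest, at 197 ± 16.7 FPKM (SD, n = 3), followed by *Pax8* at 40.2 ± 15.5 FPKM and *Emx1* at 24.4 ± 3.80 FPKM (SD, n = 4 each), and the mice of the last 2 overlapped. *Pax2* (7.14 ± 2.89 FPKM), *Gata3* (6.98 ± 3.17 FPKM), *Tfap2b* (6.86 ± 1.18 FPKM) and *Lhx1* (4.50 ± 1.197 FPKM) had overlapping levels. *Hnf4g* was lowest, at 1.52 ± 1.06 FPKM, and its highest control mouse (2.86 FPKM) overlapped the lowest for *Lhx1* (2.80 FPKM). The order differed in CKD mice, where *Hnf4a* (70.2 ± 20.5 FPKM, n = 3) and *Pax8* (66.9 ± 12.5 FPKM, n = 4) overlapped. *Tfap2b* (18.6 ± 7.62 FPKM) then had a higher mean than *Emx1* (10.5 ± 2.79 FPKM), and the mice of both overlapped. In CKD+Fe mice *Hnf4a* (81.8 ± 5.16 FPKM, n = 3) lay above *Pax8* (55.8 ± 11.7 FPKM, n = 4) without overlap.

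**Figure D1:**
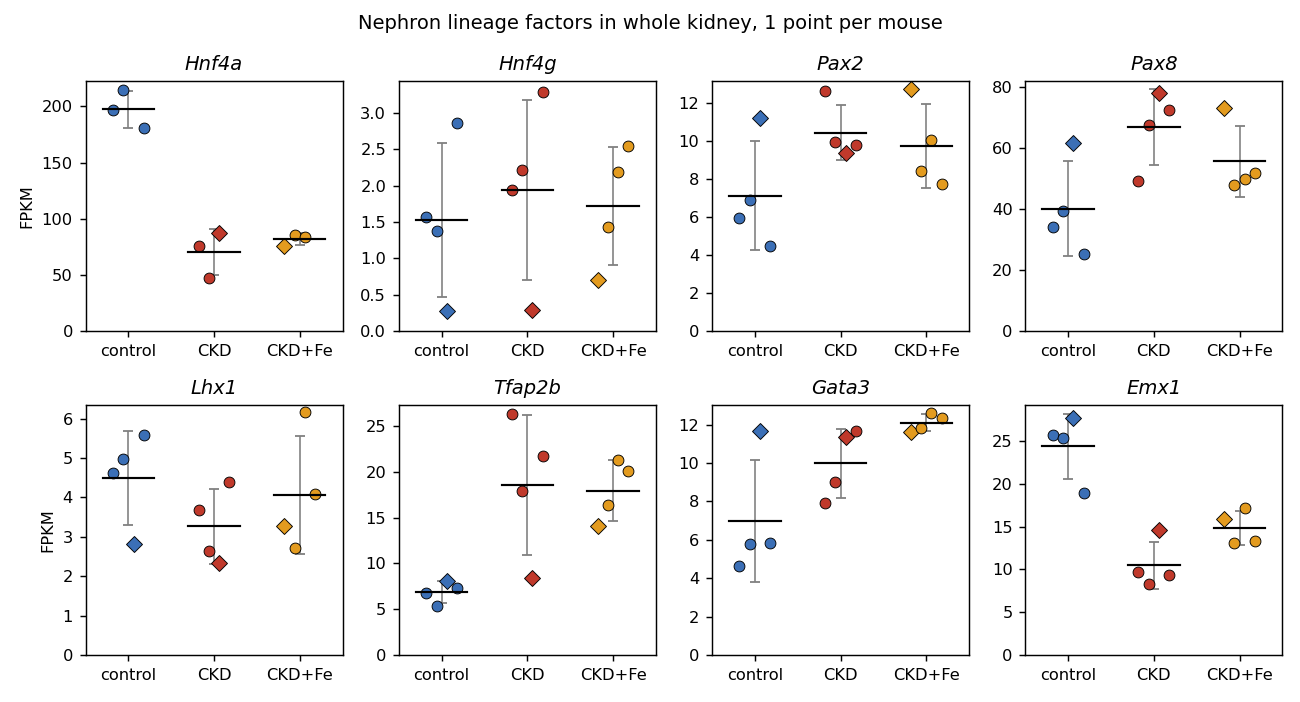
Expression of the 8 factors in FPKM (vertical axes, from 0) in each mouse of the control, CKD and CKD+Fe groups. Points are mice, lines are group means, bars are SDs and diamonds mark the mouse of each group with the lowest array weight. *Hnf4a* (3 mice per group) and *Emx1* are lower, and *Tfap2b* is higher, in every adenine-fed mouse than in every control mouse.

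In CKD mice *Hnf4a* and *Emx1* fell, *Tfap2b*, *Pax8*, *Pax2* and *Gata3* rose on the deposited scale, and *Lhx1* and *Hnf4g* did not pass the test. By limma 4 of the 8 factors were called higher, against 54.6% of all genes tested, and 2 were called lower, against 13.3%. The share of the factors that rose was thus close to the share of all genes. *Tfap2b* was the only member called higher after median-of-ratios rescaling and *Pax8* the only one after quantile normalization. *Lhx1* was called lower beside *Hnf4a* and *Emx1* under both. Of all 13148 genes 3781 were called higher and 3856 lower after median-of-ratios rescaling, and 3060 and 3363 after quantile normalization. *Tfap2b* was the only riser whose groups did not overlap, against 44.6% of all genes higher without overlap. *Hnf4a* and *Emx1* were lower without overlap, against 10.5% of all genes. Without the 3 mice of lowest array weight the same 6 factors passed the test, at log2 fold changes of -1.70 for *Hnf4a*, -1.26 for *Emx1*, 1.62 for *Tfap2b*, 0.92 for *Pax8*, 0.81 for *Pax2* and 0.71 for *Gata3*. For *Hnf4a*, which also had failed estimates, only CKD mice 1 and 2 were then left in the CKD group.

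*Hnf4a* expression was 197, 214 and 181 FPKM in control mice 1, 2 and 4, and 76.0, 47.4 and 87.2 FPKM in CKD mice 1, 2 and 3. The estimate was marked as failed in control mouse 3, CKD mouse 4 and CKD+Fe mouse 4, where the gene is listed at 0, and these 3 values were treated as missing. Every measured CKD mouse was below every measured control mouse. *Hnf4a* fell by 1.52 on the log2 scale (SE, standard error, 0.21; adjusted p = 9.53e-05, limma), a level 0.35 times that of control mice on this scale. The exact permutation test of 3 mice against 3 gave p = 0.1 (two-sided), which is as low as that design can go. *Hnf4a* was lower under all scalings, at -2.11 after median-of-ratios rescaling and -1.35 after quantile normalization. Its adjusted p of limma ranged from 3.74e-06 to 0.000611 over 11 settings, the reported one among them.

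*Hnf4g*, the paralog of *Hnf4a*, had 1.57, 1.38, 0.283 and 2.86 FPKM in control mice 1 to 4 and 1.94, 2.22, 0.295 and 3.29 FPKM in CKD mice. The groups overlapped throughout, and the lowest value of each was in the mouse with the lowest array weight. About 15 reads stood behind the value of control mouse 3 and about 161 behind the highest, so the counting error is large at the low end. The change in CKD was 0.20 on the log2 scale (SE 0.38, 95% interval -0.62 to 1.01, adjusted p = 0.653, limma), and it changed sign to -0.14 after median-of-ratios rescaling and to -0.60 after quantile normalization. Changes inside that interval were not detectable here.

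*Emx1* expression was 25.7, 25.3, 27.7 and 18.9 FPKM in control mice 1 to 4, and 9.67, 8.29, 14.6 and 9.34 FPKM in CKD mice. All CKD mice lay below all control mice. *Emx1* fell by 1.16 on the log2 scale (SE 0.17, adjusted p = 6.71e-05, limma; exact permutation p = 0.0286, two-sided, the smallest possible with 4 mice per group). The direction was the same under all scalings, at -1.71 after median-of-ratios rescaling and -1.59 after quantile normalization. The adjusted p of limma was 9.24e-07 to 0.000399 over 11 settings, the reported one among them. Its paralog *Emx2*, picked for mention after its values were seen, had 19.8 FPKM in control and 20.7 FPKM in CKD mice on average (log2 fold change 0.10, adjusted p = 0.614, limma), and the difference between the paralogs was not tested.

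*Lhx1*, the LIM homeodomain factor, had 4.63, 4.97, 2.80 and 5.59 FPKM in control mice 1 to 4 and 3.69, 2.64, 2.32 and 4.40 FPKM in CKD mice. The groups overlapped, with control mouse 3 among the low values. The log2 change as deposited was -0.36 (SE 0.23, adjusted p = 0.178, limma). It was -0.83 after median-of-ratios rescaling and -1.14 after quantile normalization, both past the threshold. The adjusted p of limma ranged from 0.0009 to 0.234 over 10 settings, the reported one among them.

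*Tfap2b* expression was 6.74, 5.30, 8.10 and 7.29 FPKM in control mice 1 to 4, and 26.3, 17.9, 8.40 and 21.8 FPKM in CKD mice. The 3 other CKD mice were well above all control mice, while CKD mouse 3 exceeded the highest control mouse by less than the spread of either group. *Tfap2b* rose by 1.23 on the log2 scale (SE 0.27, adjusted p = 0.00125, limma; exact permutation p = 0.0286, two-sided). *Tfap2b* was higher under all scalings, at 0.70 after median-of-ratios rescaling and 0.67 after quantile normalization, where its adjusted p of 0.0592 (limma) missed the threshold. The range over 11 settings, the reported one among them, was 1.69e-06 to 0.0592. *Tfap2a*, also picked after its values were seen, averaged 1.73 FPKM in control and 5.21 FPKM in CKD mice (log2 fold change 1.22, adjusted p = 6.8e-05, limma).

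*Pax8* expression was 34.1, 39.5, 61.8 and 25.4 FPKM in control mice 1 to 4, and 49.2, 67.7, 78.0 and 72.5 FPKM in CKD mice. The groups overlapped through control mouse 3, which was above CKD mouse 1. *Pax8* rose by 0.77 on the log2 scale (SE 0.24, adjusted p = 0.0104, limma; exact permutation p = 0.0571, two-sided). The rise was 0.21 after median-of-ratios rescaling, where it was not called, and 0.70 after quantile normalization. The adjusted p of limma was 0.000642 to 0.459 over 11 settings, the reported one among them.

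*Pax2*, the paralog of *Pax8* in the paired-box family, had 5.96, 6.91, 11.2 and 4.48 FPKM in control mice 1 to 4 and 12.6, 9.99, 9.41 and 9.83 FPKM in CKD mice. Control mouse 3 stood above 3 of the 4 CKD mice, and the other control mice were below all of them. *Pax2* rose by 0.55 on the log2 scale (SE 0.22, adjusted p = 0.04, limma; exact permutation p = 0.114, two-sided), but the value was 0.04 after median-of-ratios rescaling and turned to -0.09 after quantile normalization. The call was kept in 5 of 12 fits that left out 1 mouse, and the rise ranged from 0.38 without control mouse 4 (adjusted p = 0.133, limma) to 0.76 without control mouse 3 (adjusted p = 0.00287, limma). Within each mouse *Pax8* kept close to *Pax2* in the control group, at a log2 difference of 2.33 ± 0.04 (SD, n = 4). In CKD mice this difference was 2.55 ± 0.46, and the groups overlapped (exact permutation p = 0.4, two-sided).

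*Gata3* expression was 4.62, 5.79, 11.6 and 5.85 FPKM in control mice 1 to 4, and 7.93, 9.02, 11.3 and 11.6 FPKM in CKD mice. Control mouse 3 was as high as the highest CKD mouse, and the other control mice were below all CKD mice. *Gata3* rose by 0.52 on the log2 scale (SE 0.21, adjusted p = 0.0436, limma; exact permutation p = 0.143, two-sided), with 0.01 after median-of-ratios rescaling and a turn to -0.15 after quantile normalization. Only 2 of 12 fits that left out 1 mouse kept the call, those without control mouse 3 (0.77, adjusted p = 0.000672, limma) and without CKD mouse 1 (0.61, adjusted p = 0.032, limma). The lowest rise was 0.38, without control mouse 1 (adjusted p = 0.145, limma). Other cells that make *Gata3* varied beside it. Of 9 T and innate lymphoid cell genes tested 8 were called higher in CKD as deposited, against 54.6% of all genes. After median-of-ratios rescaling 4 were called higher, and after quantile normalization 2. The summed expression of the 10 list genes in the table, with *Icos* of low level added, was 3.95 to 10.6 FPKM in control mice. It was 13.1 to 38.4 FPKM in CKD and 26.4 to 45.6 FPKM in CKD+Fe mice. Of 7 urothelium genes tested 0 were called (limma), and the sum over the 9 list genes in the table, including *Trp63* and *Krt14* of low level, was 1.92 to 143 FPKM in control mice, with the highest in control mouse 3, 6.59 to 57.8 FPKM in CKD and 29.3 to 53.4 FPKM in CKD+Fe mice. *Upk3a* of the urothelium was listed at 0 in control mouse 1. The part of these cells in the *Gata3* values was not tested.

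**Figure D2:**
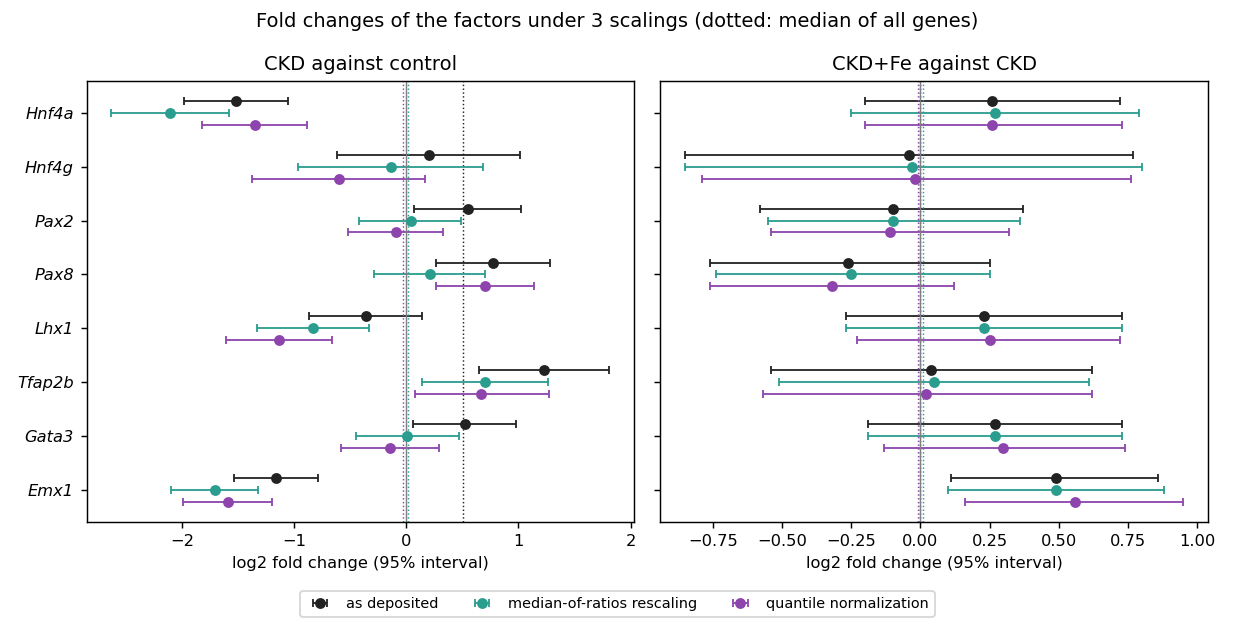
Log2 fold changes of the 8 factors (horizontal axes, log2(FPKM + 1) scale) in CKD against control and in CKD+Fe against CKD mice, as deposited and after 2 rescalings. Points are limma estimates, bars are 95% intervals and dotted lines are the median of all genes, 0.502 for the deposited values in CKD. In CKD against control, *Tfap2b* stays above 0 and *Emx1* and *Hnf4a* stay below it under all 3 scalings, while *Pax2* and *Gata3* move to about 0.

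To set each factor beside the genes of its own segment, the mean log2(FPKM + 1) of a list of segment genes was subtracted from that of the factor in the same mouse. Such a difference also moves when the list moves, so it is read against the same difference for all 13148 genes. *Hnf4g* stood at -7.37 ± 0.45 relative to 26 proximal tubule genes in control mice and at -4.97 ± 0.93 in CKD mice (SD, n = 4 each), a log2 difference of 2.41 (exact permutation p = 0.0286, two-sided). *Hnf4g* itself changed by 0.20, so most of this difference was the fall of the list. Relative to the same list 96.1% of all genes were higher in CKD without overlap, with a median difference of 2.71. *Hnf4a* stood at -1.09 ± 0.17 in control and -0.30 ± 0.22 in CKD mice (SD, n = 3 each), a log2 difference of 0.79 without overlap, as *Hnf4a* fell less than the mean of these genes (exact permutation p = 0.1, the lowest that 3 against 3 can give). In those mice 98.1% of all genes were higher relative to the list, at a median of 2.82.

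Relative to *Hnf4a*, its paralog *Hnf4g* was at -6.11 ± 0.49 in control and -4.90 ± 1.10 in CKD mice, and the groups overlapped (exact permutation p = 0.2, two-sided, n = 3 each). *Gata3* relative to *Hnf4a* was -4.95 ± 0.21 in control and -2.74 ± 0.43 in CKD mice, without overlap (exact permutation p = 0.1, n = 3 each). Of all genes 93.2% were higher relative to *Hnf4a* without overlap.

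*Tfap2b*, *Gata3* and *Pax2* were compared with distal lists, which moved less. *Tfap2b* relative to 10 distal convoluted and connecting tubule genes was -2.14 ± 0.39 in control and -0.92 ± 0.45 in CKD mice, and the closest mice of the groups, control mouse 3 at -1.595 and CKD mouse 3 at -1.588, nearly met. Against that list 35.3% of all genes were higher without overlap, at a median of 0.50. Relative to 10 collecting duct genes, *Gata3* was -2.14 ± 0.17 in control and -1.27 ± 0.34 in CKD mice, and *Pax2* was -2.10 ± 0.17 and -1.20 ± 0.22 (SD, n = 4 each). For this list the share of all genes was 48.0% and the median 0.86, close to the differences of *Gata3* and *Pax2*. Each of these 3 differences had an exact permutation p of 0.0286 (two-sided). The FPKM of *Gata3* and *Pax2* overlapped between control and CKD groups through control mouse 3, and their differences within a mouse did not. The collecting duct list was itself high in control mouse 3, at a mean of 5.852 against 4.709 to 4.879 in the other control mice. Subtracting it lowers the differences of that mouse.

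In CKD+Fe against the same control mice, *Hnf4g* (1.86), *Tfap2b* (1.10) and *Gata3* (0.77) also gave p = 0.0286 by the exact permutation test, and *Pax2* (0.42) gave 0.286. Of all genes 92.9% were then higher without overlap relative to the proximal tubule list, 20.7% relative to the distal convoluted and connecting tubule list and 28.4% relative to the collecting duct list. With adjustment over the 24 comparisons of this kind the lowest p was 0.098, so none passed 0.05.

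**Figure D3:**
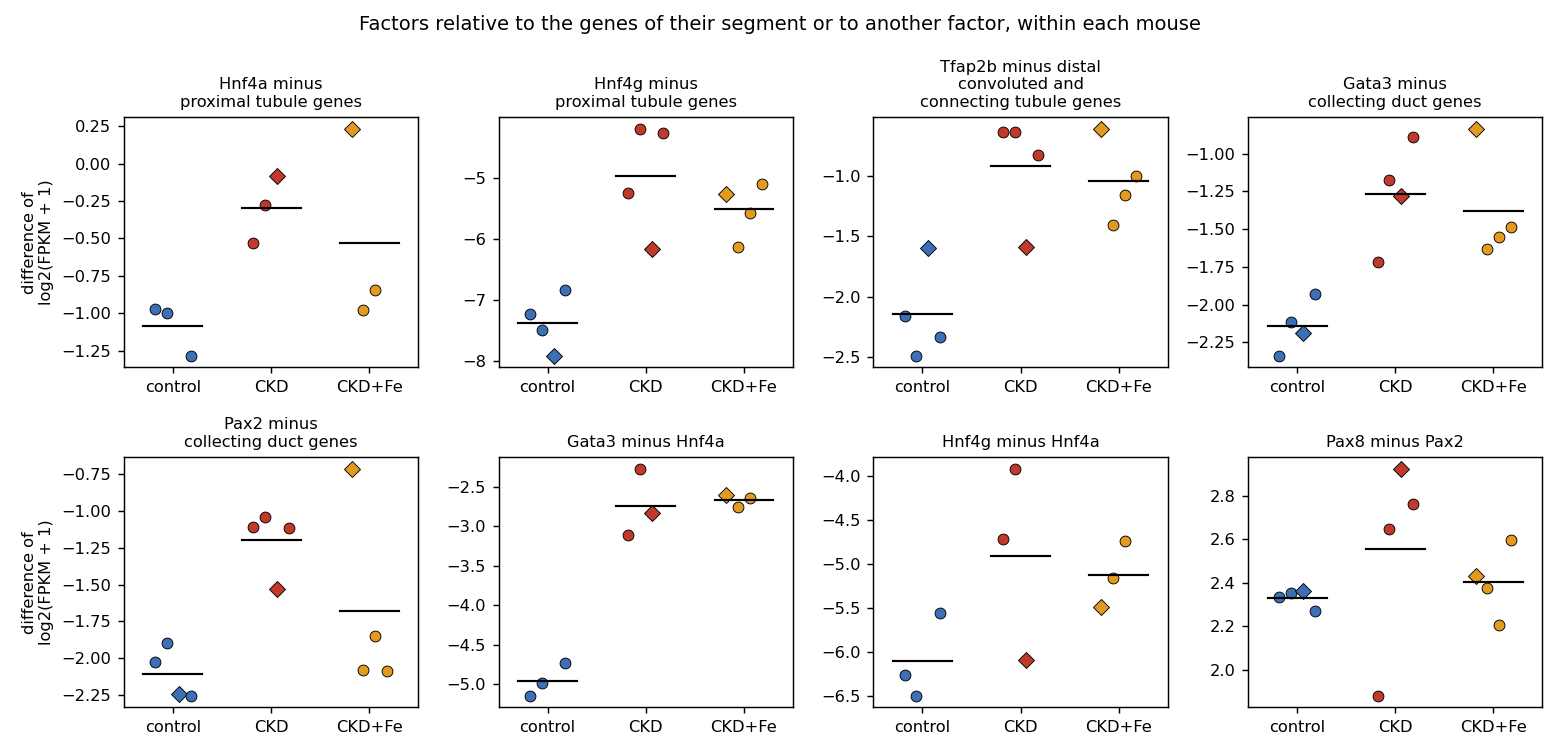
Difference of log2(FPKM + 1) between a factor and the mean of its segment genes, or between 2 factors, in each mouse (vertical axes) by group. Points are mice, lines are group means and diamonds mark the mouse of each group with the lowest array weight. Every CKD mouse lies above every control mouse in 6 of the 8 panels, by very little for *Tfap2b* (-1.588 against -1.595), and the groups overlap for *Hnf4g* relative to *Hnf4a* and for *Pax8* relative to *Pax2*. Many other genes do the same. Of all genes 96.1% (12 mice) and 98.1% (9 mice) lie higher without overlap relative to the proximal tubule list. The shares are 93.2% relative to *Hnf4a*, 48.0% relative to the collecting duct list and 35.3% relative to the distal convoluted and connecting tubule list.

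Iron dextran did not move any of the 8 factors past the threshold: 0 of 8 were called in CKD+Fe against CKD mice by limma, against 0.00761% of all genes (1 gene). At an unadjusted p under 0.05 *Emx1* alone passed, against 6.01% of all genes. No member had groups without overlap, against 1.35% of all genes higher and 1.09% lower. *Emx1* was 15.9, 13.1, 17.2 and 13.3 FPKM in CKD+Fe mice 1 to 4, above 3 of the 4 CKD mice and below all control mice. The log2 difference from CKD mice was 0.49 (95% interval 0.11 to 0.86, unadjusted p = 0.0144, adjusted p = 0.653, limma; exact permutation p = 0.0857, two-sided). It was the same, 0.49, after median-of-ratios rescaling and 0.56 after quantile normalization. Its adjusted p of limma ranged from 0.0529 to 0.851 over 11 settings, the reported one among them. Without the 3 mice of lowest array weight, CKD mouse 3 among them, the difference was 0.61 and still missed the threshold (adjusted p = 0.0775, limma).

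*Hnf4a* stood at 76.0, 85.8 and 83.6 FPKM in CKD+Fe mice 1 to 3, near the CKD mice, with a log2 difference of 0.26 (95% interval -0.20 to 0.72, adjusted p = 0.958, limma) that ranged from 0.00 to 0.44 over fits that left out 1 mouse. *Gata3* was 11.6, 11.8, 12.6 and 12.3 FPKM in CKD+Fe mice 1 to 4. These mice were closely grouped, and the lowest of them was level with the highest CKD mouse. The difference was 0.27 (95% interval -0.19 to 0.73, adjusted p = 0.958, limma). *Tfap2b* was 14.1, 16.4, 21.3 and 20.1 FPKM, within the CKD range, with a difference of 0.04 (95% interval -0.54 to 0.62, adjusted p = 0.999, limma). Without the 3 mice of lowest array weight the *Tfap2b* difference was -0.17. Without them the intervals of *Hnf4a* (0.49, 95% interval 0.02 to 0.96, adjusted p = 0.238, limma) and *Gata3* (0.35, 95% interval 0.03 to 0.66, adjusted p = 0.219, limma) lay above 0, as did that of *Emx1* (0.29 to 0.94), and none of the 3 passed the adjusted threshold. For *Hnf4a*, whose failed values were also missing, this comparison rested only on CKD mice 1 and 2 and CKD+Fe mice 2 and 3. Over 11 settings, the reported one among them, the adjusted p of limma ranged from 0.223 to 1.0 for *Hnf4a* and from 0.186 to 1.0 for *Gata3*.

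*Pax8* in CKD+Fe mice was 73.1, 48.0, 50.1 and 52.0 FPKM and differed from CKD mice by -0.26 (95% interval -0.76 to 0.25, adjusted p = 0.964, limma). *Pax2* was 12.8, 8.44, 10.1 and 7.77 FPKM, and *Lhx1* was 3.28, 2.72, 6.16 and 4.08 FPKM. CKD+Fe mouse 1 was the highest of its group for *Pax2* and mouse 3 for *Lhx1*, and CKD and CKD+Fe mice overlapped for both. The log2 differences from CKD mice were -0.10 for *Pax2* (adjusted p = 0.993, limma) and 0.23 for *Lhx1* (adjusted p = 0.972, limma). *Hnf4g* was 0.710, 1.43, 2.18 and 2.54 FPKM, with a difference of -0.04 whose 95% interval, -0.85 to 0.77, was the widest of the 8. Relative to their segment genes or to another factor, none of the 8 differences between CKD+Fe and CKD mice had an exact permutation p below 0.229.

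Against control mice, which serve both comparisons with the adenine groups, CKD+Fe mice had 2 factors called higher (54.4% of all genes) and 2 called lower (11.0% of all genes) by limma. *Tfap2b* was higher by 1.27 (adjusted p = 0.0011, limma) and *Gata3* by 0.79 (adjusted p = 0.00545, limma), beside 1.23 and 0.52 in CKD mice without iron. *Hnf4a* was lower, at -1.26 (adjusted p = 0.000392, limma), and so was *Emx1*, at -0.68 (adjusted p = 0.00407, limma), beside -1.52 and -1.16. Both were also called after median-of-ratios rescaling, at -1.84 and -1.22, and after quantile normalization, at -1.09 and -1.04. *Gata3* was not: its groups overlapped (exact permutation p = 0.0571, two-sided, n = 4 each), and its difference was 0.28 after median-of-ratios rescaling and 0.15 after quantile normalization. The limma adjusted p of *Gata3* was 1.11e-05 to 0.566 over 11 settings, the reported one among them. *Tfap2b* was called at 0.75 after median-of-ratios rescaling and missed the threshold at 0.69 after quantile normalization (limma adjusted p = 0.0583, range over the same 11 settings 1.28e-06 to 0.0583). *Pax2* (0.44, adjusted p = 0.0909, limma) and *Pax8* (0.51, adjusted p = 0.069, limma) missed the threshold. Without control mouse 3 both passed, at 0.66 for *Pax2* (adjusted p = 0.00743, limma) and 0.74 for *Pax8* (adjusted p = 0.00585, limma). After median-of-ratios rescaling their differences were -0.06 and -0.04. *Hnf4g* differed by 0.16 and *Lhx1* by -0.14, and neither passed the test as deposited. *Lhx1* was called lower after median-of-ratios rescaling (-0.60, adjusted p = 0.0422, limma) and after quantile normalization (-0.89, adjusted p = 0.00573, limma).

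The other transcription factors of the kidney, a list of 59 genes of which 46 passed the filter on low values, moved in both directions. In CKD 23 were called higher and 6 lower by limma, with a median log2 fold change of 0.55 beside 0.50 over all genes. The 6 lower ones are 13.0% of the 46, and over all genes 54.6% were called higher and 13.3% lower, so neither count was above the share of all genes. After median-of-ratios rescaling 14 of the 46 were called higher and 10 lower, against 3781 and 3856 of all 13148 genes. After quantile normalization they were 11 and 10, against 3060 and 3363 of the 13148. The largest rises were of *Sox9* (0.286 to 8.69 FPKM, log2 fold change 2.88) and *Sox4* (4.69 to 38.3 FPKM, 2.81), HMG-box factors of progenitor and regenerating epithelium, and of the epithelial Ets factors *Elf3* (2.02) and *Ehf* (1.69). The deepest fall was of *Klf15*, a Krüppel-like factor, from 50.8 ± 6.27 to 19.5 ± 4.73 FPKM (SD, n = 4 each; -1.36). The Iroquois factors *Irx3* (-0.89) and *Irx1* (-0.84) and the homeodomain factor *Cux1* (-0.78) were also lower. In CKD+Fe against CKD mice 0 of the 46 were called and 4 had an unadjusted p under 0.05, against 6.01% of all genes. *Sox9* (-0.66, adjusted p = 0.458), *Sox4* (-0.46, adjusted p = 0.682) and *Hoxd11* (-0.36, adjusted p = 0.8) were the lower ones, and *Klf15* (0.46, adjusted p = 0.748, all by limma) was the higher one. Among the 13 list members without a test, *Six2* and *Eya1* of the embryonic kidney and *Pax3*, a paralog of *Pax2* and *Pax8*, reached at most 0.5 FPKM in any mouse.

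Genes of the segments where the factors act moved unequally. Of 26 proximal tubule genes 25 were lower in CKD (median -1.97), led by the transporter *Slc7a13* (519 to 30.9 FPKM, -4.49) and *Acsm2* (1674 to 128 FPKM, -3.84). Of 10 distal convoluted and connecting tubule genes 3 were higher and 3 lower (median 0.34), from the calcium-binding protein *Pvalb* (-3.42) to the calcium channel *Trpv5* (2.04). Of 10 collecting duct genes 2 were higher and 2 lower (median -0.53), the lower ones being the water channels *Aqp3* (-1.28) and *Aqp2* (-1.24). Thick ascending limb genes had 3 higher and 3 lower of 10 (median 0.30), with *Egf* at -2.49 and the claudin *Cldn19* at 1.23. Intercalated cell genes had 3 higher and 4 lower of 10 (median -0.30), with the anion exchanger *Slc26a4* at -1.33 and the proton pump subunit *Atp6v0d2* at 1.22. Over all genes 54.6% were called higher and 13.3% lower on this scale. After median-of-ratios rescaling collecting duct and intercalated cell genes each had 1 higher and 6 lower. After quantile normalization the former had 1 and 3, and the latter 1 and 6. In the same order of scalings, thick ascending limb genes had 1 and 4, then 4 and 3. Distal convoluted and connecting tubule genes had 2 and 3 under both, and 25 and then 23 proximal tubule genes were lower.

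All 10 tubule injury genes were higher in CKD mice (median 4.60, *Lcn2* 7.05). Outside the tubule, so were all 8 macrophage genes (median 3.45, *Cd14* 3.61) and all 8 fibroblast and mural genes (median 2.04, *Col3a1* 3.55). Of 8 podocyte genes 4 were higher (median 0.92, *Thsd7a* 1.31), and of 8 endothelial genes 1 was lower, the VEGF receptor *Kdr* (-0.67). Over all genes 54.6% were called higher and 13.3% lower. After median-of-ratios rescaling 3 podocyte genes were higher and 5 endothelial genes lower, and after quantile normalization 2 and 4. The T and innate lymphoid genes had a median of 0.94 (*Il7r* 2.25), and the urothelium genes a median of -0.04. Over the 13 lists 0 of 169 genes were called in CKD+Fe against CKD mice by limma. At an unadjusted p under 0.05 there were 31 of the 169, 22 higher and 9 lower, against 6.01% of all genes.

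**Figure D4:**
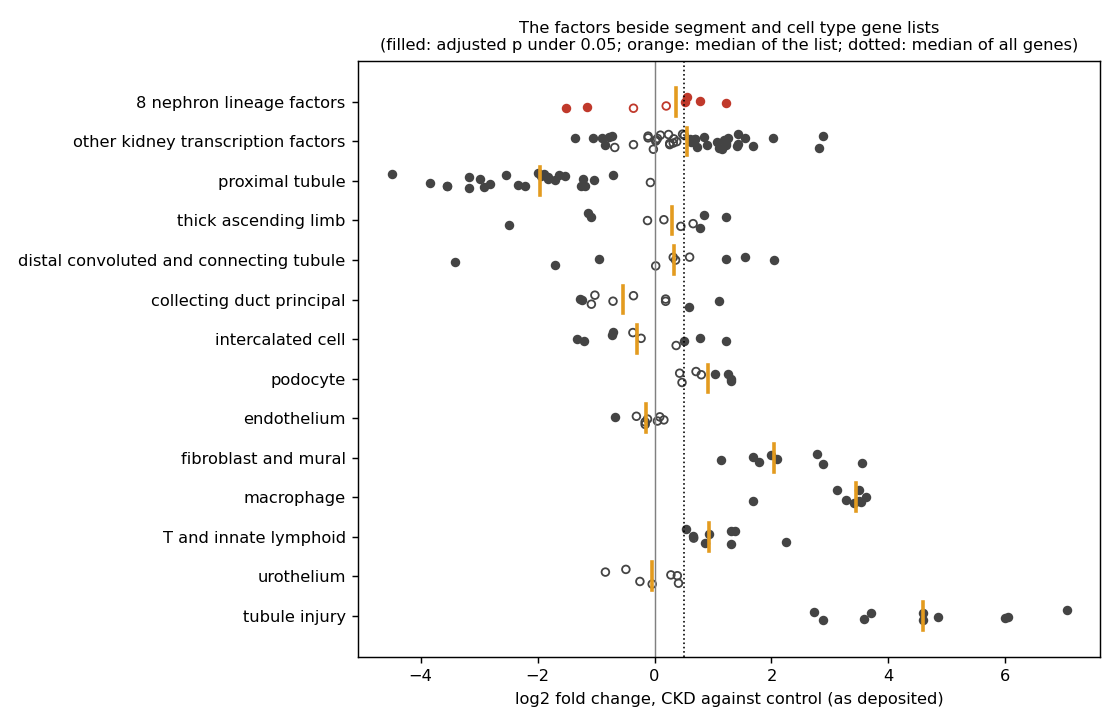
Log2 fold change between CKD and control mice (horizontal axis, log2(FPKM + 1) scale as deposited) of the 8 factors and of the genes of 13 lists (rows). Each point is a gene, filled where the adjusted p is under 0.05, orange bars are list medians and the dotted line is the median of all genes, 0.502. The factors spread from -1.52 to 1.23, between the medians of the proximal tubule genes (-1.97) and of the injury genes (4.60).

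For each factor the genes of most similar pattern were those with the smallest root mean square difference, over mice, of log2(FPKM + 1) from the control mean. *Hnf4a* was closest to *Clybl* (0.113), *Abhd14b* (0.127) and *Msra* (0.136) over 9 mice, and these genes had log2 fold changes of -1.49, -1.57 and -1.46 in CKD. The genes closest to *Emx1* over 12 mice were *D10Jhu81e* (0.161), *Txn2* (0.178) and *Mrps7* (0.179), with -1.09, -0.97 and -1.01. *Tfap2b* was closest to *Hook3* (0.156), *Pdk1* (0.159) and *Zfp788* (0.167), and *Gata3* to *Rabgef1* (0.164), *Naa35* (0.177) and *Calcoco1* (0.178). The closest pattern to *Pax2* was that of *Fgf12* (0.120), then *Foxq1* (0.156) and *Dnajb3* (0.162), and *Pax8* was closest to *Plcd3* (0.151), *Scrib* (0.156) and *Klf16* (0.159). *Lhx1* was closest to *Adra1a* (0.120), *Bbs7* (0.173) and *Add3* (0.181). *Hnf4g* had the loosest match, with *Kat2b* at 0.211, *Atp13a3* at 0.212 and *Itpr1* at 0.233. None of the 24 was another of the 8 factors.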

How the data were processed

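RNA of whole kidneys from 12 mice, 4 per group as labelled, was sequenced by the authors from stranded mRNA libraries on a HiSeq4000 instrument with 50 single-end cycles. The submitters' processing notes name bcl2fastq 2.19, STAR 2.5.2, Cufflinks 2.1.1 and the build GRCm38. The deposited values are FPKM per protein-coding gene, made by the authors, with a status per mouse. The 30 values of 17 genes whose status was a failed estimate were set to missing. FPKM are relative to each mouse's total, so a change in total RNA cannot be seen in them. Depth was estimated, for 6326 genes with 1 transcript, from the lowest step of FPKM times transcript length.

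Values were analysed as log2(FPKM + 1) for the 13148 genes that reached 1 FPKM in 4 or more mice, with limma 3.58.1 in R 4.3.3 (1 fit of all 12 mice, variance trend, Benjamini-Hochberg adjustment over all genes, threshold 0.05). The authors used DESeq2 on read counts, which were not analysed here. Exact permutation tests were two-sided. Python 3.11.15 with scipy 1.17.1 was used for them, and the fit was tested on simulated data.

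The members and gene lists were chosen with earlier results of these data known. Beside the members, the genes named were the 2 called genes of largest fold change in CKD from each list, the 5 largest in each direction from the transcription factors, and the 3 genes of closest pattern to each member. Where more genes of a list are named, they were picked after their values were seen, and a few genes that the rule names are not reported here. The alternatives were a pseudocount of 0.1, rescaling by median-of-ratios or quantiles, no filter or one on the mean (5 FPKM), array weights, fits without the third group or without a trend, other thresholds, list medians, and the omission of single mice.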

Additional observations from a re-analysis of the deposited data

Results flagged for a closer look

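In each group of 4 mice, the gap of the highest or lowest mouse to its neighbour was compared with the range of the group, for the FPKM of the factors and for their differences within a mouse. Of 36 groups 2 had a mouse that stood apart, and chance alone gives about 1 in 20. *Pax8* was 73.1 FPKM in CKD+Fe mouse 1, against 48.0 to 52.0 FPKM in the other CKD+Fe mice. *Pax2* relative to the collecting duct genes was -1.53 in CKD mouse 3, on the log2 scale, against -1.114 to -1.04 in the other CKD mice. Both are among the 3 mice with the lowest array weight of their group.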

How the results depend on the processing

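No paired analysis was possible because the labels give the groups no shared replicate numbers. With 4 mice per group (3 for *Hnf4a*) the limits are the spread between mice, the scaling and, for *Hnf4g*, depth. The falls of *Hnf4a* and *Emx1* in CKD kept direction and call in all 22 fits run beside the one reported. *Lhx1* was called lower in CKD after either rescaling and at an adjusted p under 0.5. In CKD+Fe against control mice *Lhx1* was also called lower after either rescaling. In CKD+Fe against CKD mice 0 factors were called in any of these settings (limma), and 1 had an unadjusted p under 0.05 as reported.

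The 4 factors called higher in CKD became 2 without the filter on low values and in the fit of only the 2 groups, and 1 after median-of-ratios rescaling, after quantile normalization, after rescaling without the 3 mice of lowest array weight, and at an adjusted p under 0.01. They ranged from 2 to 4 with 1 mouse left out. The 2 called higher in CKD+Fe against control became 1 after median-of-ratios rescaling, 0 after quantile normalization (limma), and 4 with array weights, without the 3 mice, and at an adjusted p under 0.5, with 2 to 4 when 1 mouse was left out. The 0 list genes called higher with iron became 9 with array weights, without the 3 mice and at an adjusted p under 0.5 (where 1 was lower), and 7 without the 3 mice after rescaling. With 1 mouse left out they ranged from 0 to 1. Counts over all 13148 genes rose in these settings too, with 79 higher and 56 lower with array weights. Without the 3 mice 51 were higher and 33 lower, and 36 and 7 without them after rescaling. The list genes higher in CKD+Fe against control, 77, became 44 after quantile normalization. The 7 differences within a mouse at an exact permutation p under 0.05 became 4 with the median over the list and after quantile normalization, and ranged from 4 to 7 with 1 mouse left out. Without the 3 mice they were 0, since 3 mice against 3 cannot go below 0.1.

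Signs turned as follows, and of these values only *Gata3* and *Pax2* in CKD had been called. In CKD *Hnf4g* was -0.14 after median-of-ratios rescaling, -0.60 after quantile normalization, -0.16 with rescaling and without the 3 mice, and -0.09 to 0.55 with 1 mouse left out. After quantile normalization *Gata3* was -0.15 and *Pax2* -0.09. In CKD+Fe against control *Hnf4g* was -0.17, -0.62 and -0.30 in the same 3 settings and -0.13 to 0.40 with 1 mouse left out. *Pax2* was -0.06 after median-of-ratios rescaling and -0.20 after quantile normalization, *Pax8* was -0.04 after the former, and *Pax2* relative to collecting duct genes was -0.02 with the list median. With iron *Hnf4g* was 0.06 at a pseudocount of 0.1 and -0.39 to 0.18 with 1 mouse left out. *Tfap2b* was -0.12 with array weights, -0.17 without the 3 mice, -0.12 without them after rescaling, and -0.28 to 0.24 with 1 mouse left out. With the list median, *Tfap2b* relative to its segment was 0.15 and *Gata3* relative to its segment 0.08 with iron. *Gata3* relative to *Hnf4a* was -0.01 without the 3 mice. With 1 mouse left out it was -0.11 to 0.31, *Hnf4g* relative to *Hnf4a* was -0.81 to 0.27, and *Gata3* relative to its segment was -0.29 to 0.01. The cause of these changes was not tested.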

Other observations

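With iron dextran, genes of the acid and base handling intercalated cells stood higher than in CKD mice, although none passed the adjusted threshold. All 10 had a higher log2 value in CKD+Fe mice (0.06 to 1.15, median 0.57), 8 of them at an unadjusted p under 0.05, against 6.01% of all genes, and 0 at an adjusted p under 0.05 (limma). These 8, named after their values were seen, include the anion exchangers *Slc4a1* (1.15, adjusted p = 0.462, limma), *Slc26a4* (0.72, adjusted p = 0.479, limma) and *Slc4a9* (0.68, adjusted p = 0.415, limma). *Foxi1*, the forkhead factor of intercalated cells, averaged 10.8 FPKM in both control and CKD mice and 14.2 FPKM after iron (0.39, adjusted p = 0.848, limma). Of the 26 proximal tubule genes 6 were higher with iron at an unadjusted p under 0.05, including the organic anion and urate transporters *Slc22a8* (1.16, adjusted p = 0.277, limma) and *Slc22a12* (1.36, adjusted p = 0.254, limma). Among the 10 tubule injury genes 6 were lower at the same unadjusted threshold.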
